A study of Mus musculus with 55 samples.

Results

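H4K20me3 islands were compared between the livers of 2 kinds of mice, as the 2 complete lists of islands that were deposited for this histone mark. The members are all 1635 islands of the untreated wild type (WT) list and all 2106 islands of the list from Setd8-LKO mice treated with TCPOBOP, 3741 of the 173819 islands and peaks in the series' lists for 6 chromatin readouts. No island was left out and no readout was used to choose them. An island is a stretch of the genome, cut into windows of 20 kb, in which reads from the mark were enriched. A gap of at least 40 kb separates neighbouring islands of a list, so every length and every edge falls on a 20 kb grid.

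Setd8-LKO mice carry Setd8 alleles with a floxed exon 7 and a Cre transgene under the albumin promoter, which deletes the gene in hepatocytes and leaves it in the other cells of the liver. They received 3 mg/kg of TCPOBOP, a mitogen that acts through the nuclear receptor CAR, and liver nuclei were taken after 24 h. The WT mice had no Cre deletion. They are untreated by their labels, whereas corn oil and mock DMSO injections are named in other descriptions of the study. All mice were males, 45 to 50 days old. Genotype and treatment therefore change together, and the parts of deletion, TCPOBOP and injection in any difference cannot be told apart. CUT&Tag, in which an antibody guides a transposase that inserts sequencing adapters beside the bound chromatin, was performed on 2 livers per group. RNA-seq covered 5 untreated WT, 5 TCPOBOP-treated WT and 4 TCPOBOP-treated Setd8-LKO livers. The RNA libraries carry the run labels A and B in unequal numbers per group. Among those of Setd8-LKO only number 4 carries A, whereas most libraries of each WT group do. Each island list pools its group, so no spread between mice exists for any island value. The differences between the lists are descriptions with no test, and the intervals given with shares are exact Clopper-Pearson intervals at 95%, which cover counting error only. In nuclei of whole liver, fewer cells of a type and less signal per cell cannot be told apart.

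Setd8, encoded by Kmt5a, places the first methyl group on lysine 20 of histone H4. The enzymes Suv4-20h1 and Suv4-20h2 (Kmt5b and Kmt5c) add the second and the third from that substrate. The trimethylated form, H4K20me3, is known from constitutive heterochromatin, from repeats and from clusters of genes that are silent in most tissues, such as those of olfactory receptors and of KRAB zinc finger proteins. Kmt5a RNA comes first because it bears on the labels. Normalized counts of the gene were 613, 568, 761, 563 and 715 in untreated WT and 1341, 1465, 1338 and 1312 in the libraries labelled Setd8-LKO. The gene was higher in all 4 libraries labelled Setd8-LKO (log2 fold change 1.08, standard error 0.14, adjusted p = 0.000151, from the quasi-likelihood test of edgeR and the Benjamini-Hochberg procedure). Whether exon 7 is missing cannot be read from a count of the whole gene, and the groups are named by their labels throughout. With RLE scaling (relative log expression, in edgeR) the change was 0.27 and the call was lost. RLE scaling took its factors only from the genes in the deposited RNA table, which the authors had selected by their own test. No other alternative removed the call.

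The starts of 5 genes show the kinds of sequence that the islands cover. Each is the window from 250 bases before to 50 bases after the start in RefSeq, on build GRCm38.p6, written 5′ to 3′ on the strand of the gene. The dinucleotide CG, which reads the same on both strands, is in capitals.
Zfp820, KRAB zinc finger gene in an island of both lists, chr17:21845710-21846009, minus strand: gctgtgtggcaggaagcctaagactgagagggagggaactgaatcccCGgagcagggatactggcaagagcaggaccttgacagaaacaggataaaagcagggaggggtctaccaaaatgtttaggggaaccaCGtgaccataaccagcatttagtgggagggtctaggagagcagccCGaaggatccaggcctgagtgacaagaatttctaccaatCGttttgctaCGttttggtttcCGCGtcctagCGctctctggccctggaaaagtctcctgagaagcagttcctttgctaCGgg
Zfp93, zinc finger gene beyond the WT edge of an island and inside it in Setd8-LKO, chr7:24270168-24270467, plus strand: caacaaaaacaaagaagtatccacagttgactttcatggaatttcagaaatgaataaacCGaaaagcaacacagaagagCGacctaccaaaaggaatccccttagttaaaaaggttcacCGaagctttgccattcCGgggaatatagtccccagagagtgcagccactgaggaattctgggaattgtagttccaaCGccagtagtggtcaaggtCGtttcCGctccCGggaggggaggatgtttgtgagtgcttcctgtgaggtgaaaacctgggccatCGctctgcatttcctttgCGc
Cyp2e1, hepatocyte cytochrome P450 in an island found only in Setd8-LKO, chr7:140763569-140763868, plus strand: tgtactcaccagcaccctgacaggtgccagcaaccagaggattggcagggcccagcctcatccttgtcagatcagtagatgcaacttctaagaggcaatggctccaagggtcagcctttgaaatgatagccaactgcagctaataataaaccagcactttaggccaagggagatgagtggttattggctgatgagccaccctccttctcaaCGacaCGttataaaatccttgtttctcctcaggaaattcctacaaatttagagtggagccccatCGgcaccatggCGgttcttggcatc
Prl, prolactin, in a gap that opened inside a WT island, chr13:27057320-27057619, plus strand: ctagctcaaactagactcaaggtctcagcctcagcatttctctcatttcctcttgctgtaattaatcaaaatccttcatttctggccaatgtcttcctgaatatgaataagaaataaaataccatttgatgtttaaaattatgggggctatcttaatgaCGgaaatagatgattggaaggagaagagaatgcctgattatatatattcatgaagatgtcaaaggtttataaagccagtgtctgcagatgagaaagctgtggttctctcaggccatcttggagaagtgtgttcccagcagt
Vmn2r91, vomeronasal receptor in an island of both lists, chr17:18084807-18085106, plus strand: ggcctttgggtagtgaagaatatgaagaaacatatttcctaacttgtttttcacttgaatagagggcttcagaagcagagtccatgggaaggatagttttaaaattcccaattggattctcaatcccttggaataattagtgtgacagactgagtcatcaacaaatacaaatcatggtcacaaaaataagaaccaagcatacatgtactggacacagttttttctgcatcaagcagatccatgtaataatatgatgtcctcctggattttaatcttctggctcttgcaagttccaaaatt

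The zinc finger starts hold 9 and 10 CG dinucleotides, Cyp2e1 holds 4, Prl 1 and Vmn2r91 none. Over the 16522 starts with a window in the table, the median was 14 and 58.9% held at least 10. Starts in bases covered by both lists had a median of 1 CG (1312 starts), those covered in WT only a median of 2 (262) and those covered in Setd8-LKO only a median of 3 (251), against 16 outside both lists (14697). The genes with a Zfp symbol stood apart from the other covered genes, with a median of 10 both in shared bases (83 starts) and in bases covered in Setd8-LKO only (36 starts). Outside both lists their median was 17 (208 starts). Olfactory receptor starts had a median of 1 in shared bases (526 starts) and of 1 outside both lists too (281 starts).

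The islands labelled Setd8-LKO covered less of the genome in more and shorter pieces. WT islands covered 27.1% of the 2648 Mb of sequenced chromosomes and those labelled Setd8-LKO 23.9%, or 88.2% of the WT length. Of the 21 chromosomes, 18 lost covered length and 20 held more islands in Setd8-LKO. Chromosome Y had the lowest ratio, 55.3% (0.76 Mb in WT and 0.42 Mb in Setd8-LKO), followed by chromosome 9 with 78.0% (27.1 and 21.2 Mb) and chromosome 12 with 81.1% (41.2 and 33.4 Mb). The ratio of chromosome Y rests on 5 islands in each list.

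Chromosomes 15, 17 and 19 went the other way. Chromosome 19 rose from 5 islands and 0.44 Mb in WT to 25 islands and 2.38 Mb in Setd8-LKO, and none of its WT islands was lost. Islands took up 0.756% of its length in WT and 4.09% in Setd8-LKO, against 36.5% and 31.7% of chromosome 1. Chromosomes 15 and 17 covered 104% and 103% of their WT length, with 53 and 92 islands on chromosome 15 and 61 and 78 on chromosome 17, WT first. The score of an island, explained with its values further on, summed to more in Setd8-LKO on 20 of the 21 chromosomes, and to 1.42 times the WT sum over the genome, although the covered length was lower.

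**Figure D1:**
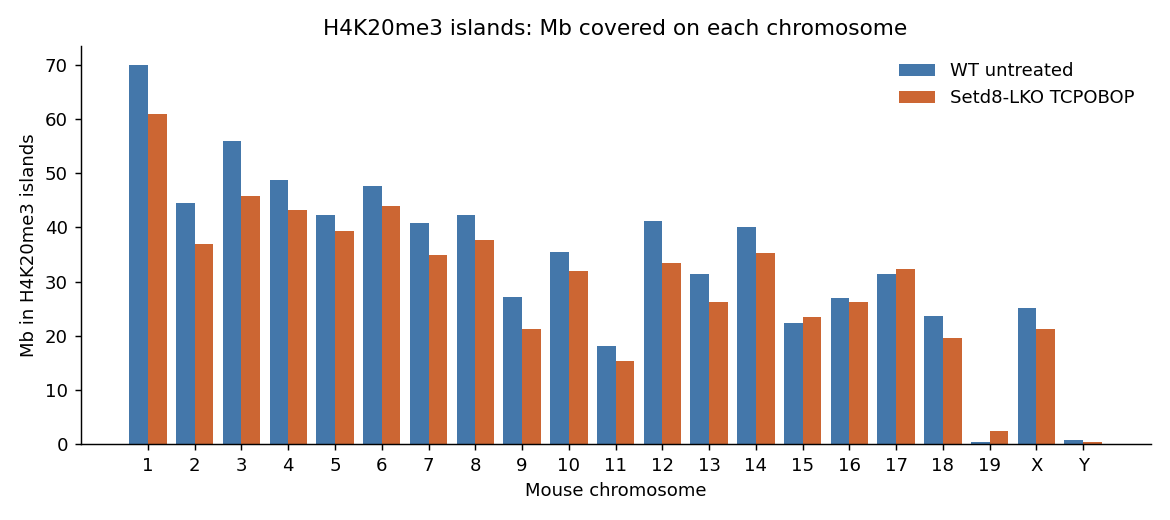
Mb covered by H4K20me3 islands on each mouse chromosome in WT untreated (blue) and Setd8-LKO TCPOBOP (orange), 1 pooled list per group and so without error bars. The orange bar is lower on 18 of 21 chromosomes and higher on 15, 17 and 19.

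Short islands rose in number and in length covered, and long ones fell in both. Islands of 20 to 40 kb made up 8.87% of the WT list (145 islands, interval 7.53 to 10.4%) and 23.8% of the Setd8-LKO list (502 islands, 22 to 25.7%). With a minimum score of 100 in both lists these shares were 2.40% and 12.7%. Single windows of 20 kb rose from 52 to 234. Islands over 1000 kb fell from 200 (12.2%, 10.7 to 13.9%) to 156 (7.41%, 6.33 to 8.61%). These long islands still held 49.1% of the covered length in WT, 352 Mb, and 42.7% in Setd8-LKO, 270 Mb, while the short class held 4.76 Mb (0.664%) and 15.4 Mb (2.44%). Every WT island over 1000 kb overlapped an island labelled Setd8-LKO, and 69.1% of those of 120 to 200 kb did. In the Setd8-LKO list 35.7% of the islands of 20 to 40 kb overlapped a WT island, against 86.9% of those of 120 to 200 kb.

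**Figure D2:**
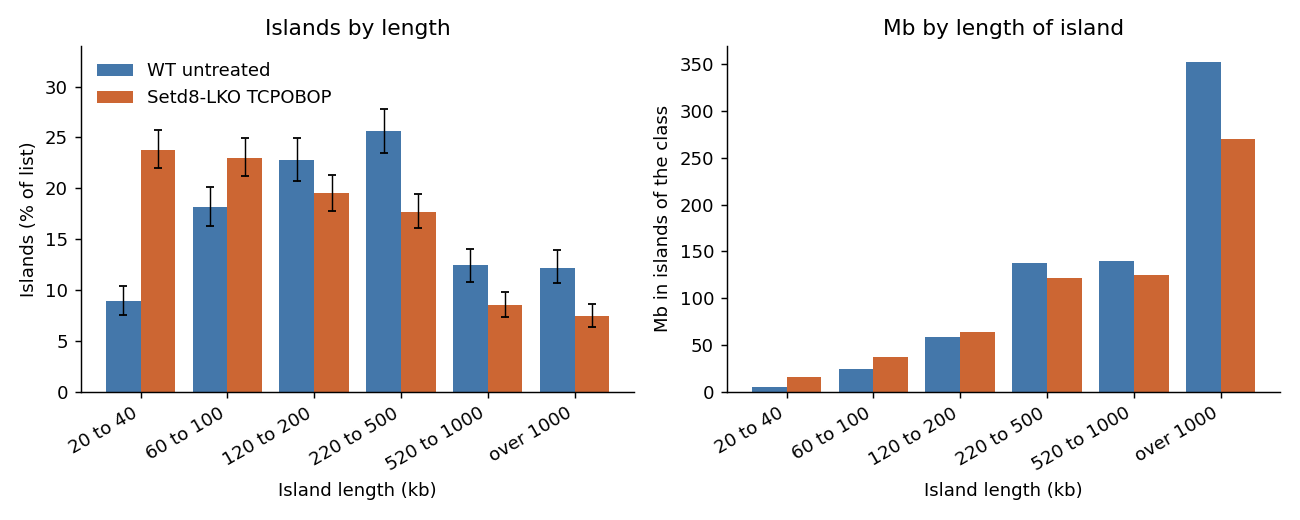
Left, share of each list's islands by length class in kb, with exact 95% Clopper-Pearson intervals. Right, Mb in the islands of each class, for WT untreated (blue) and Setd8-LKO TCPOBOP (orange). The class of 20 to 40 kb rises from 8.87% to 23.8% of the islands, and the class over 1000 kb falls from 352 to 270 Mb.

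Islands were matched by any shared base. A single partner on each side was found for 976 pairs, 59.7% of the WT islands and 46.3% of those labelled Setd8-LKO. Another 202 WT islands (12.4%, 10.8 to 14.0%) lay over 475 separate islands of the other list, 150 of them over 2, 36 over 3, 13 over 4 and 3 over 5. The reverse, several WT islands under 1 island labelled Setd8-LKO, was seen 63 times, with 129 WT islands. Split islands were long, with a median of 880 kb against 180 kb for those with a single partner. The split share was 8.69% with equal numbers of top islands from both lists. With a required overlap of 50% of both islands it was 0%, by construction. Among the pairs, 300 (30.7%, 27.9 to 33.7%) had both edges in the same windows.

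The 3 WT islands cut into most pieces lay at gene-poor or tissue-restricted loci. The island chr13:25240001-27860000, of 2620 kb, holds the prolactin family cluster, hormones mostly of the placenta and pituitary, with Prl, Prl3d1, Prl2c1 and 18 other family members of it among 23 protein-coding starts. It was cut in 5, and its score per window was 17.3 against 11 over the pieces. The islands chr15:13980001-15520000 and chr3:16220001-17780000 held no protein-coding start. Their score per window changed from 22.3 to 21.1 and from 24.8 to 38.9, so that splitting went with a lower score per window at 2 of the 3 loci and with a higher one at the last.

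The 3 islands labelled Setd8-LKO that joined 3 WT islands each lay over Grip1 and Helb, a receptor scaffold and a DNA helicase (chr10:119400001-120180000), over Fam19a5, a secreted brain protein (chr15:86500001-87580000), and inside Cntn5, a neuronal adhesion molecule (chr9:9380001-10880000). All 3 had a higher score per window than their WT islands. It was 145 against 55.9 at Grip1, 28.5 against 8.24 at Fam19a5 and 22.2 against 19.5 at Cntn5.

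The unshared bases of WT lay at edges, in whole islands and in gaps. Of 138 Mb covered in WT only, 64.9 Mb (47.1%) lay at the edges of islands that persisted, 53.0 Mb (38.4%) in islands with no partner and 20.0 Mb (14.5%) in gaps inside a WT island. Of the 299 gaps, 178 were exactly 40 kb, the smallest that the grid allows. With a minimum score of 100 in both lists, gaps made up 9.55% of the length covered in WT only. The 53.2 Mb covered in Setd8-LKO only had another makeup, with 30.6 Mb (57.4%) in islands with no partner, 18 Mb (33.7%) at edges and 4.72 Mb (8.87%) in gaps.

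Edges of matched pairs moved inward more often than outward. Of 1952 edges, 1042 stayed in their window, 588 (30.1%) moved inward and 322 (16.5%) outward, for a mean shift of -16.0 ± 62.1 kb (SD over edges, which are not replicates) and a net -31.3 Mb. Left and right edges gave 29.6% and 30.6% inward. Long islands retracted and short ones did not. Of the edges of WT islands of 520 to 1000 kb, 45.5% moved inward and 11.8% outward. For WT islands of 20 to 40 kb, which have little room to shrink and still be matched, these shares were 1.65% and 24.0%.

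Named by size, the largest retractions removed 760 kb from the right side of chr12:14340001-15380000, 540 kb from that of chr9:33280001-34460000 and 480 kb from that of chr3:64740001-65300000. The first 2 stretches held no protein-coding start. The last left outside the island the starts of Vmn2r7, a vomeronasal receptor, and of Kcnab1, a subunit of potassium channels. The largest extensions were smaller, 300 kb at chrX:156420001-156640000, 220 kb at chr4:36560001-36620000 into Lingo2, a neuronal membrane protein, and 180 kb at chr11:14400001-16340000.

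**Figure D3:**
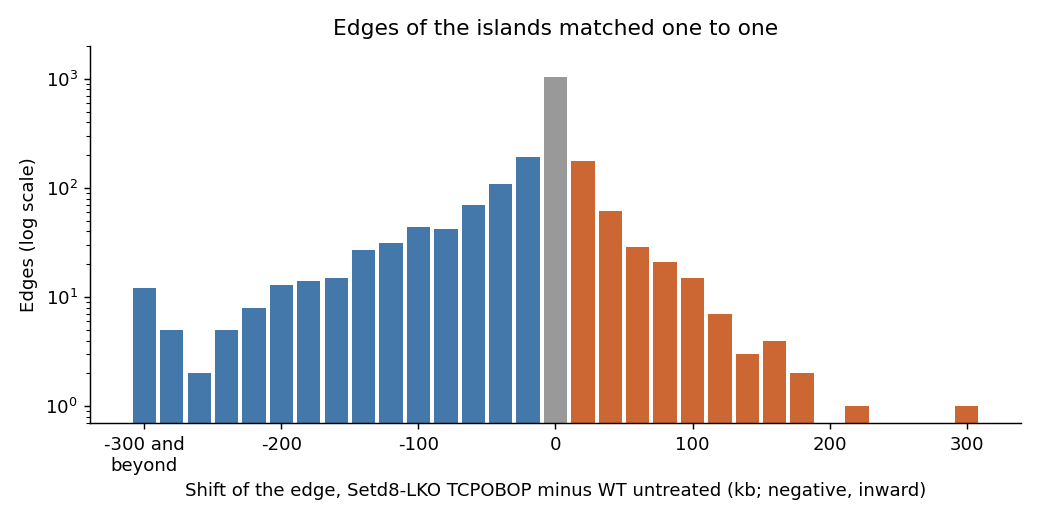
Shift of each of the 1952 edges of the 976 islands matched one to one, in kb, with inward shifts negative (blue), unmoved edges grey and outward shifts orange, and the number of edges on a log scale. The last bar on the left gathers shifts of 300 kb and more, and inward shifts outnumber outward ones by 588 to 322.

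The score of an island is the sum over its windows of the negative natural logarithm of the Poisson probability of the reads seen, so it grows with length and is compared here per 20 kb window. From islands of a single window the expected number of reads per window could be recovered as 38.35 for WT and 38.39 for Setd8-LKO, with no window score missed by more than 1.8e-06. The number of reads expected by chance was thus nearly the same for both lists. A score says how far the reads were concentrated in an island, not how much mark a nucleus held. Single-window islands held from 98 to 362 reads in WT and from 98 to 384 in Setd8-LKO, apart from 2 labelled Setd8-LKO with a score of exactly 1000, which is read as at least that. The island of 40 kb over Plec, also labelled Setd8-LKO, had exactly 1000 per window too, and windows at that limit may lie in other long islands of high score. Since the score is a logarithm of a probability, a ratio of scores is not a ratio of reads. Pairs of islands are therefore also compared by the reads per window that would give the same mean score if every window of an island held as many, called even reads here.

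Even reads per window were higher in Setd8-LKO at most matched islands, and among the 3 gene families set apart here the ratio was highest at zinc finger genes. Over the 976 pairs the median score per window was 18.6 in WT and 29.6 in Setd8-LKO, and the median even reads were 77.7 and 91.5. The median ratio of even reads, Setd8-LKO over WT, was 1.15, with the middle 50% of pairs between 1.02 and 1.46. It was above 1 in 774 pairs (79.3%), at least 2 in 78, and in 1 pair the even reads of Setd8-LKO were at least 2-fold fewer. The median ratio was 1.46 for WT islands of 20 to 40 kb, 1.37 for 60 to 100 kb, 1.21 for 120 to 200 kb, 1.10 for 220 to 500 kb, 1.07 for 520 to 1000 kb and 1.04 for longer ones. The ratio was thus lower in each longer class of WT islands. Pairs with the same 2 edges gave 1.16, close to the value over all pairs.

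Pairs in which the island labelled Setd8-LKO held a Zfp gene start numbered 33. Their median score per window was 40.1 in WT and 212 in Setd8-LKO, and their median even reads were 103 and 223. The median ratio of even reads was 1.94, and it was at least 2 in 16 of 33 and above 1 in 32. In 32 of the pairs a Zfp start lay in the WT island too, and these gave 1.99. The ratio was 1.17 with olfactory receptor starts (33 pairs), 1.15 with vomeronasal receptor starts (20 pairs) and 1.14 with none of these families (898 pairs). Within WT length classes up to 1000 kb the median ratio of the Zfp pairs lay between 1.57 and 2.52, and for the 3 longer ones it was 1.07. The family was among the lists chosen with earlier results known, and no test was made of its difference from the rest.

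**Figure D4:**
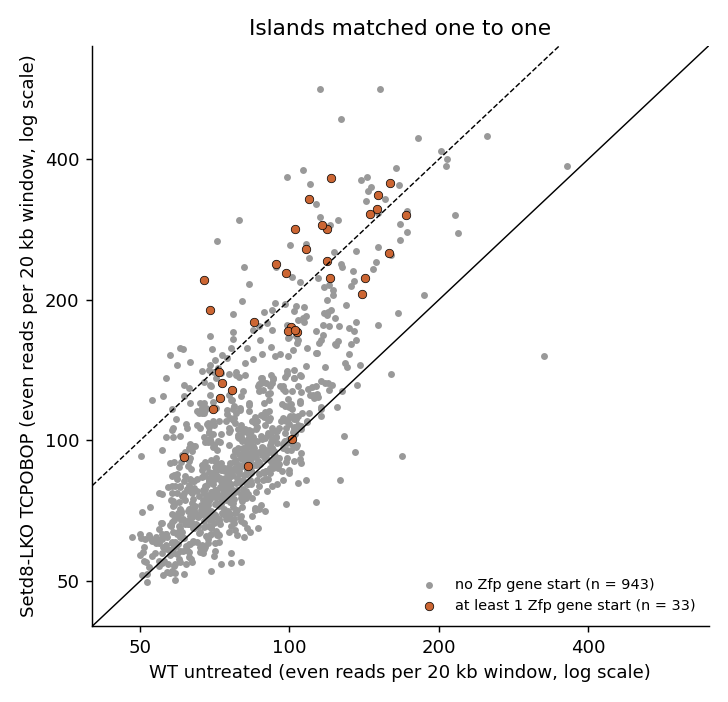
Even reads per 20 kb window, solved from the score per window, of the 976 pairs of islands matched one to one, with WT untreated on the x axis and Setd8-LKO TCPOBOP on the y axis, both on log scales, a solid line for equal reads and a dashed line for 2-fold more in Setd8-LKO. Of the 33 orange points, pairs with a Zfp gene start, 16 lie at or above the dashed line and 32 above the solid one.

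Of the 3 islands with the highest scores, that over Cntnap5a was among the 3 of both lists. In WT the 3 lay over Cntnap5a, a neuronal adhesion gene (chr1:111880001-118260000, 6380 kb, score 18021), over Dpp10, which binds potassium channels (chr1:121600001-125360000, score 8370), and over a cluster of Vmn2r receptors (chr17:17900001-20920000, score 8104). The islands labelled Setd8-LKO had nearly the same score per window at 2 of these loci, 59.9 against 56.5 at Cntnap5a and 56.4 against 53.7 at the Vmn2r cluster. At Dpp10 it was lower, 36.8 against 44.5. The island over Cntnap5a, the longest of both lists, was split in 2, and the right piece of 5840 kb holds all 8 of its protein-coding starts. That over Dpp10 was split in 2 as well. Those over the cadherin gene Cdh8 (chr8:96000001-100820000, 4820 kb) kept their outer edges, with scores of 7848 and 7188.

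In Setd8-LKO the first place went to a cluster of zinc finger genes. The island chr17:21760001-23060000, with Zfp820, Zfp995, Zfp942 and 7 other Zfp starts among 14 protein-coding ones, had a score of 21671, or 333 per window against 71.1 in WT. These scores correspond to 287 and 131 even reads. The Cntnap5a island followed with 17789. Next was chr5:108880001-110140000, with 17752, over Vmn2r10 to Vmn2r17, Zfp932 and Zfp605. Its score per window was 282 against 55.3. These islands were chosen for a high score in Setd8-LKO, and those before for a high score in WT, so the other list's values beside them are descriptions only.

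Clustered protocadherins also had higher scores in Setd8-LKO. These genes encode cell surface proteins that give neurons an identity, and 54 of their 57 starts lay in shared bases. The island over the Pcdha and Pcdhb genes had 340 per window in Setd8-LKO and 70.7 in WT, and that over the Pcdhg genes 798 and 66.6. Very high scores were rare in WT. A score of at least 100 per window, a limit set after the scores were seen, corresponds to 153 evenly spread reads or 3.99 times the expected number. It was reached by 29 WT islands (5.64 Mb) and by 218 islands labelled Setd8-LKO (35.3 Mb), 47 of which had no WT partner. A few islands went the other way, such as chr4:121960001-122060000 with 414 per window in WT and 99.0 in Setd8-LKO.

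Gained islands were shorter than lost ones and had a similar median score per island. Islands found in Setd8-LKO only had a median length of 40 kb and a median score of 64.6, and those found in WT only had 160 kb and 54.6. The medians per window were 36.5 and 7.57. The lowest score in the lists was 34.9 in WT and 35.2 in Setd8-LKO, so a short island needed a high score per window to be listed, and the values per window are tied to length. The highest scoring gained islands lay over Spen, a transcriptional repressor (chr4:141460001-141500000, 610 per window), over Eppk1, epiplakin, a linker of intermediate filaments (chr15:76100001-76120000, at least 1000 per window), at chr12:105860001-106000000 with no protein-coding start (115 per window), over Zfp365 and Rtkn2 (chr10:67900001-68060000, 89.7 per window) and over the claudins Cldn24 and Cldn22 (chr8:47780001-47980000, 58.0 per window). The highest scoring lost islands lay at chr14:19040001-19420000 (25.5 per window), over Dock10 and Nyap2, regulators of signalling in blood and nerve cells (chr1:80560001-81280000, 12.4), and over Xkr4 (chr1:3640001-4280000, 13.8). They were longer than the gained ones, and the next 2, chr12:11480001-12140000 and chr13:71160001-71940000, held no protein-coding start.

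Other chromatin readouts, which the islands were not made from, separated the stretches. Lamin A/C, which lines the inner nuclear membrane, was mapped by CUT&Tag in 4 libraries per group and called as islands in the same way. The 4 WT libraries carry the numbers 1, 2, 1 and 2, so they may come from 2 livers. In WT, Lamin A/C islands covered 87.2% of the bases shared by both H4K20me3 lists, 82.8% of the WT-only edges, 84.6% of the WT-only gaps and 78.2% of the lost islands, against 32.1% of all sequenced windows. In Setd8-LKO these shares were 84.1%, 71.3%, 70.5% and 61.8%, against 28.6%. At the Setd8-LKO-only edges the shares were 39.8% and 34.4%, and in the Setd8-LKO-only gaps 44.5% and 41.9%. Lamin A/C cover was thus lower in Setd8-LKO in every kind of stretch. No spread between mice exists for either list, and no test was made.

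Gained islands lay in another kind of chromatin. Lamin A/C islands covered 12.6% of their bases in WT and 10.5% in Setd8-LKO, close to the 11.7% and 8.83% outside both H4K20me3 lists. H3K27ac, a mark of active promoters and enhancers (3 livers per group), had 8.41 peaks per Mb in them in WT and 6.84 in Setd8-LKO. In shared bases there were 0.382 and 0.605 per Mb, in lost islands 0.151 and 0.434, and outside both lists 14.5 and 14.3. Accessible sites by ATAC-seq (3 WT and 5 Setd8-LKO livers) gave the same order, with 8.61 and 7.04 per Mb in gained islands, 0.449 and 0.394 in shared bases and 14.1 and 12.1 outside. The 47 gained islands of at least 100 per window were the most active of all, with 25.7 and 20.3 H3K27ac peaks per Mb and almost no Lamin A/C cover (1.35% and 0%).

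Base composition moved with these classes. GC content was 38.5% in shared bases, 40.1% in lost islands, 42.1% in gained islands, 45.1% in the gained islands of at least 100 per window and 42.8% outside both lists. Interspersed and simple repeats, taken as the soft-masked share of the reference, made up 43.1% of shared bases, 35.6% of lost and 42.0% of gained islands and 34.2% of the rest. The part of GC content and of active chromatin in what was called as an island was not tested.

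**Figure D5:**
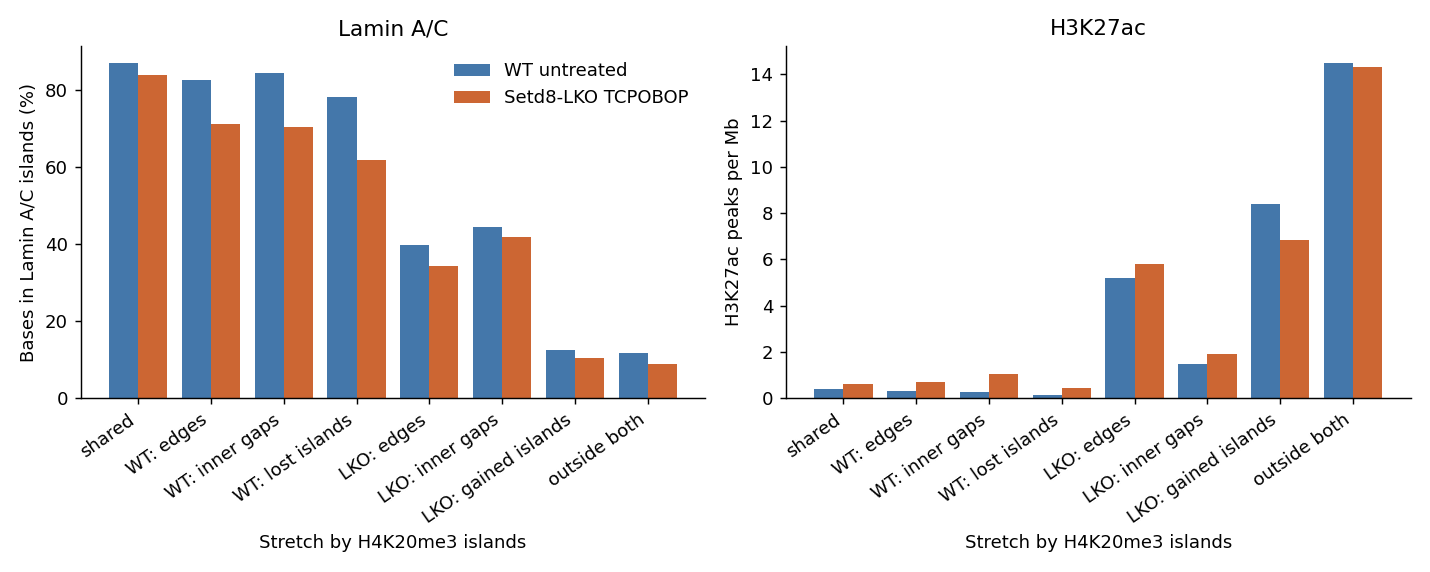
Left, percent of bases inside Lamin A/C islands of WT untreated (blue) and Setd8-LKO TCPOBOP (orange) in each kind of stretch defined by the H4K20me3 islands. Right, H3K27ac peaks per Mb of the same stretches. Lost islands go from 78.2% to 61.8% Lamin A/C cover, and gained islands hold 8.41 and 6.84 H3K27ac peaks per Mb against 0.382 and 0.605 in shared bases.

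Genes were assigned to a stretch by their 5′ end. Of 55413 annotated genes, 7250 (13.1%) began in shared bases, 1622 (2.93%) in WT only, 1069 (1.93%) in Setd8-LKO only and 45472 (82.1%) outside. For the 21938 protein-coding genes the counts were 1745, 361, 324 and 19508. Sensory receptor genes were numerous in the islands. Of 1135 olfactory receptor (Olfr) genes, 648 began in shared bases, 77 in WT only and 71 in Setd8-LKO only, and of 331 vomeronasal receptors (Vmn1r and Vmn2r) 173, 24 and 12. Both families therefore exchanged members in both directions with little net change.

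Zinc finger genes with a Zfp symbol changed in 1 direction only, and those with other symbols were not counted. Of 397 genes with a Zfp symbol, 94 began in shared bases, 39 in Setd8-LKO only and 0 in WT only, so that islands held 94 in WT and 133 in Setd8-LKO. Of the 39, 23 lay at extended edges, 12 in gained islands and 4 in gaps that closed. Examples at edges are Zfp566 and Zfp260 on chromosome 7 (338 per window), Zfp872 and Zfp810 on chromosome 9 (327) and Zfp354b on chromosome 11 (327), and in gained islands Zfp933 on chromosome 4 (97) and Zfp365 on chromosome 10 (89.7). The gained island that holds both Zfp677 and Zfp54 was weak, with 6.79 per window. Defensin genes (Defa and Defb), antimicrobial peptides, changed the other way, with 15 of 64 in shared bases, 9 in WT only and 0 in Setd8-LKO only.

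Several families and lists had no member in the islands. No gene of the Hox (39), histone (67), interferon (26) or trace amine receptor (15) families began in an island of either list. The same held for the 3 genes of H4K20 methylation, the 8 genes of the lamina, 13 of heterochromatin (of 14 asked for), 3 loci that the study imaged and 15 oncofetal genes. Of all protein-coding genes 88.9% began outside both lists, so nothing particular to these lists is read from their absence. Imprinted genes, of which only the copy from 1 parent is used, had 6 of 21 starts in islands. Gnas, Peg3 and Snrpn lay in shared bases, Ndn at a WT-only edge, Zim1 in a WT-only gap and Mest in a gained island. Among 18 genes of hepatocyte products (of 19 asked for) only Cyp2e1, which oxidises ethanol and other small molecules, and Serpina1c, an α1-antitrypsin, began in islands, both in gained ones. The island of Cyp2e1 had a score of 38.3, near the lowest of the Setd8-LKO list (35.2), and that of Serpina1c 146.

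RNA was compared with untreated WT in deposited tables of selected genes, 3900 in the table of Setd8-LKO TCPOBOP and 719 in that of WT TCPOBOP. Raw counts of the listed genes summed to between 5734065 and 12780869 per library in the first table and between 1389901 and 3706582 in the second. The selection used these same libraries, so the counts below describe listed genes and nothing can be read from them about the islands. Of 3726 listed genes tested, 2056 (55.2%) were higher and 1399 (37.5%) lower in the libraries labelled Setd8-LKO, taking as changed the genes with a log2 fold change of 1 or more in size and an adjusted p under 0.05 by the same edgeR quasi-likelihood test. That is 59.5% higher among the changed genes, which became 37.8% with RLE scaling over the listed genes. That scaling lowered the median log2 fold change of all tested genes from 1.16 to 0.34. DESeq2 with the authors' factors gave 59.5% as well. Of genes that begin in shared bases, 111 were listed, or 1.53% of those annotated there, against 8.11% outside the islands. Of the 101 tested, 64 were higher and 28 lower (median 1.34), which became 27 and 30 with RLE scaling. In WT-only bases 19 of 32 were higher and 11 lower (1.27), and in Setd8-LKO-only bases 26 of 53 higher and 23 lower (1.08).

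Of the 34 tested genes in gained islands, 16 were higher and 15 lower (median log2 fold change -1.09). The lower ones included Hsd3b5, Cyp2e1 and Serpina1c. Hsd3b5, a steroid reductase of the male liver (chr3:98620001-98700000, 12.6 per window), had normalized counts of 6989, 8072, 2739, 2914 and 2579 in WT and 5.3, 2.3, 4.5 and 1.7 in the libraries labelled Setd8-LKO. The groups lay far apart, with a log2 fold change of -10.32 (standard error 0.63, adjusted p = 2.06e-06 by the same edgeR test). Cyp2e1 (chr7:140740001-140820000, 9.58 per window) had 105925, 120250, 44438, 74302 and 49505 in WT and 15438, 18603, 27045 and 35254. All WT values were above all others (log2 fold change -1.71, standard error 0.38, edgeR adjusted p = 0.00584). Serpina1c (chr12:103900001-103940000, 72.9 per window) had 351478, 429807, 343942, 318768 and 358517 in WT and 47360, 61827, 111911 and 109304, again without overlap (-2.13, standard error 0.32, edgeR adjusted p = 0.000448).

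The solute carrier Slc22a28, on chromosome 19 (chr19:8120001-8140000, 49.6 per window), fell from a mean of 3582 ± 786 (SD, n = 5) to 163 ± 83.1 (SD, n = 4), a log2 fold change of -4.45. Mup7, a major urinary protein that carries pheromones (chr4:60020001-60120000, 19.2 per window), had 536899, 501722, 178682, 416110 and 287884 in WT and 5343, 2382, 45425 and 9602. Its log2 fold change was -4.61 and 1 library labelled Setd8-LKO lay above the other 3. Clec2h, a lectin, had 688, 462, 551, 52.5 and 345 in WT and 1.5, 0, 0 and 0. Mup7, Serpina1c, Slc22a28 and Hsd3b5 have close copies in the genome, among which the authors' counting may have divided reads, so their values are uncertain. The island scores were 38.3 at Cyp2e1, 49.6 at Slc22a28, 50.2 at Hsd3b5 and 95.8 at Mup7, with 35.2 the lowest in the list. Those of Clec2h and Serpina1c were 107 and 146. A minimum score of 100 would drop the islands of Cyp2e1, Slc22a28, Hsd3b5 and Mup7. Of 8 tested genes in gained islands with a WT mean of at least 1000 normalized counts, 0 were higher and 7 lower, the last being Cyp2d12 (-1.09, edgeR adjusted p = 0.0974). Among all listed genes 73 of 737 such genes were higher and 624 lower. Of the 26 less abundant ones 16 were higher and 8 lower, against 1983 and 775 of 2989.

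Among the genes that rose, Tlr1, a receptor for bacterial lipoproteins (chr5:64840001-64940000, 49.2 per window), had 25.5, 11.3, 46.3, 22.6 and 26.6 in WT and 344, 401, 98.5 and 198. Scml2, a Polycomb protein (chrX:161060001-161120000, 158 per window), had 3.2, 6.3, 3.1, 4.1 and 6.7 and then 57.2, 43.8, 51.2 and 47.0. Dctd, which makes dUMP for DNA synthesis, at an extended edge of an island of 332 per window, had 1.1, 0, 1.0, 2.1 and 5.5 and then 68.7, 79.1, 78.2 and 59.0. In all 3 genes every library labelled Setd8-LKO lay above every WT library. The log2 fold changes were 3.28, 3.40 and 5.10, with edgeR adjusted p values of 0.00026, 1.09e-05 and 2.03e-05.

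In WT-only bases, Atp10a, a lipid flippase, rose from 9.04 ± 5.42 (SD, n = 5) to 103 ± 57.6 (SD, n = 4) normalized counts, a log2 fold change of 3.49, and the collagenase Mmp13 from 3.30 ± 2.18 to 28.0 ± 4.93 (3.05). Elavl4, a neuronal RNA-binding protein in a lost island (chr4:110320001-110460000), fell from 15.5 ± 6.19 to 0.971 ± 0.719 (-3.84). That island had a score of 34.9, equal after rounding to the lowest of the WT list, so it was barely listed in WT. Ndn, an imprinted growth regulator at a WT-only edge, had 3.2, 6.3, 6.2, 8.2 and 7.8 in WT and 27.5, 24.3, 12 and 24.8. Its log2 fold change was 1.79, and 0.94 with the call lost under RLE scaling. Peg3, an imprinted zinc finger gene, had 116, 83.9, 274, 200 and 294 in WT and 1165, 1306, 1580 and 823 (2.65). Its start lay in an island of 260 kb and 25.2 per window in WT, and of 40 kb and 20.0 per window in Setd8-LKO. In the other shared bases Vmn2r3 rose by 6.82 on the log2 scale, from at most 1.3 normalized counts per WT library to between 52.5 and 118. Mup21, whose island grew from 100 to 160 kb and from 66.9 to 240 per window, fell by 3.43. Both belong to families of similar genes.

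TCPOBOP alone in WT gave a shorter table. Of 679 listed genes tested, 395 (58.2%) were higher and 140 (20.6%) lower than in untreated WT by the same edgeR test, 73.8% of the changed ones being higher. With TMM or RLE scaling over the listed genes that share was 26.0% or 27.1%. The median log2 fold change of all tested genes went from 1.34 to 0.09 or 0.18. In shared bases 8 of 9 tested genes were higher and 1 lower, in Setd8-LKO-only bases 4 of 9 higher and 3 lower, and in WT-only bases no gene was listed. With either of the other scalings 1 gene was higher and 1 lower in shared bases, and 0 were higher and 4 lower in Setd8-LKO-only bases. Listed genes made up 0.124% of the annotated genes that begin in shared bases and 0.935% in Setd8-LKO-only bases, against 1.3% of all. Peg3 had 552, 761, 474, 588 and 780 normalized counts in WT TCPOBOP (log2 fold change 1.71). This became 0.45 with TMM and 0.53 with RLE scaling, both without a call. The call was also lost with the replicate block (1.82, edgeR adjusted p = 0.0575), which groups libraries that share only a number. Hsd3b5 had 245, 126, 149, 939 and 502 (-3.57). Both comparisons use the same untreated libraries, so these values are not independent of those above. H4K20me3 in TCPOBOP-treated WT livers was not analysed here.

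Markers of liver cell types moved between the same groups of RNA libraries. Alb, albumin, was the most abundant hepatocyte marker, with a mean of 894982 normalized counts in WT and 353089 in the libraries labelled Setd8-LKO. All 5 listed of 7 hepatocyte markers were lower, and their sums were 1293700, 1606403, 1538714, 1125512 and 1825692 in WT and 473268, 458896, 509672 and 654524. With the replicate block, which groups libraries that share only a number, Alb lost its call (log2 fold change -1.19 against -1.34, edgeR adjusted p = 0.255). All 5 cholangiocyte markers were listed and 4 were higher. One of these 4, Sox9, lost its call with RLE scaling (log2 fold change 0.46 against 1.32). Spp1 was the most abundant of them, and the sums were 686, 609, 423, 668 and 464 in WT and 7426, 5932, 1617 and 3850. Of 6 stellate cell markers the 3 listed, Col1a1, Col3a1 and Dcn, were higher, with Dcn the most abundant and sums of 2597, 1947, 2689, 2745 and 2951 in WT and 11108, 10138, 4813 and 6360. Of 11 immune markers 2 were listed (S100a8 and S100a9, the latter the more abundant) and neither was called, with sums of 6, 6, 39, 100 and 12 in WT and 86, 85, 71 and 121. Of 5 endothelial markers none was listed, and unlisted markers were not analysed here. The part of a changed mix of cells in the islands and in the RNA was not tested.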

How the data were processed

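H4K20me3 CUT&Tag was measured in 2 livers per group. Per the labels and the study's methods, the authors trimmed reads with Trimmomatic 0.39, aligned them with HISAT2 to mm10, removed duplicate, poorly mapped and blacklisted reads, and reduced the reads of each sample in proportion to the smallest one. They called islands with SICER2 and H3K27ac, ATAC, CTCF and Smc3 peaks with MACS2 2.2.7.1. The deposited island score was computed by the authors. An IgG control is named in the methods, but whether islands were called against it is not stated, nor is how livers were pooled. For RNA the deposited tables hold raw counts and the authors' normalized counts (each raw count times 1 factor per library, stored as a rounded score) of genes selected by the authors' combined test. Their p-value and FDR columns were deposited by the authors and used here only to derive the 18512 genes of the adjustment. Another 114 columns of transformed counts were not used, nor were the authors' fold changes. Totals of these tables are not library depths, since only selected genes are listed.

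Island matching required an overlap of 1 bp and used Python 3.11.15, numpy 2.4.6 and pandas 2.3.3, and intervals were computed with scipy 1.17.1. Expected reads per window were solved from the scores of single-window islands. Peaks were counted by their centre, genes by the 5′ end in the GENCODE annotation of GRCm38.p6, which has the coordinates of mm10, and sequences came from RefSeq's windows for the same build. Raw counts were tested in edgeR 4.0.16 (R 4.3.3) with the authors' factors, glmQLFit, glmQLFTest and filterByExpr at a minimum count of 10. DESeq2 1.42.0 served an alternative with the authors' factors. TMM and RLE scaling were computed in edgeR over the listed genes. Replicates are separate livers by the labels. The matching recovered 800 of 800 planted groups on simulated lists, and edgeR 200 of 200 genes planted at a log2 fold change of 2 on counts simulated for Setd8-LKO TCPOBOP (3755 genes).

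The named islands are, per list, the 3 highest scoring and 3 longest, the 3 islands split or merged most, the 3 largest retractions and extensions and the 5 highest scoring gained and lost. Named RNA genes are the 5 largest rises and falls per class among changed genes whose groups do not overlap, and members of fixed lists. Other islands and genes, such as those of the protocadherins, were named after their values were seen, as were the limits of 100 per window, of 1000 normalized counts and of 2000 bp for exons. The members and all lists were chosen with earlier results of these data known.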

Additional observations from a re-analysis of the deposited data

Results flagged for a closer look

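In 40 groups of RNA libraries of the genes named above, 2 values stood far from the rest of their group, about as many as the 1 in 20 that chance gives. Mup7 had 45425 normalized counts in 1 library labelled Setd8-LKO, and the nearest of the other 3 had 9602. Clec2h had 1.5 normalized counts in 1 library labelled Setd8-LKO and 0 in the other 3, a difference of about 1 or 2 reads.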

How the results depend on the processing

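No paired analysis was possible because each island list pools its group, and the island results have no replicates to leave out. Alternatives were an overlap of 50% of both islands, a minimum score of 100, equal numbers of top islands, a minimum of 60 kb, joining of islands up to 40 kb apart, and no X or Y. Values that moved by more than their counting interval are given, and beyond the fewer islands that most of these settings leave the cause was not tested. Kept islands (82.1%) became 62.1, 85.6, 74.6 and 77.3% under the 50% overlap, the score minimum, equal numbers and the 60 kb minimum. Gained islands (26.1%) became 51.8, 18.2, 16.6 and 28.5% under the 50% overlap, equal numbers, the 60 kb minimum and joining. Split islands (12.4%) became 0% under the 50% overlap, by construction, and 8.69 and 10.2% under equal numbers and joining. Under the score minimum, equal numbers, the 60 kb minimum and joining, the Mb ratio (88.2%) became 89.1, 83.7, 86.6 and 88.7%, the shared WT length 81.5, 78.1, 80.3 and 81.4% (81.2% without X and Y), the edge share 51.3, 42.3, 43.8 and 51.0% and the gap share 9.55, 10.3, 12.8 and 15.5%. Islands up to 40 kb were 2.40% of WT and 12.7% of Setd8-LKO under the score minimum, and 17.6% of Setd8-LKO under equal numbers. Protein-coding genes alone gave 1745, 361 and 324 starts.

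RNA counts of changed genes moved with RLE scaling to 57 (from 92) in shared bases for Setd8-LKO. For WT TCPOBOP, TMM and RLE scaling gave 277 and 280 changed genes (from 535) in the table. They gave 2 and 2 (from 9) in shared bases and 4 and 4 (from 7) in Setd8-LKO-only bases. Both scalings rest on the listed genes, which the authors had selected. Setdb1 (-0.24 and -0.16), Syt1 (-0.19 and -0.11) and Trim24 (-0.16 and -0.08), called higher in WT TCPOBOP, changed sign with these scalings. Same-numbered libraries did not deviate together (correlations from -0.43 to 0.11), so they share only a number. With the run label as a term 3244 genes counted as changed for Setd8-LKO and 574 for WT TCPOBOP, where Setdb1 lost its call (log2 fold change 0.99). With the replicate block 2937 and 364 genes counted as changed, 78 and 7 in shared, 25 and 0 in WT-only and 37 and 2 in Setd8-LKO-only bases, Setd8-LKO first. Leaving out each library gave 3114 to 3464 and 468 to 539 in the tables, 82 to 94 and 8 to 9 in shared, 28 to 31 and 0 to 0 in WT-only and 43 to 50 and 5 to 8 in Setd8-LKO-only bases. Of the named genes, Alb, Apoa2, Cyp3a11, Kmt5a, Lmna, Ndn and Sox9 lost their call under some alternative for Setd8-LKO and none of the 56 changed sign. For WT TCPOBOP 14 of 17 lost it, Peg3 among them. Requiring the Zfp start in the WT island or in both islands, an alternative chosen after seeing the data, gave a median ratio of even reads of 1.99 in both cases (1.94 before).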

Other observations

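Immune receptor and secreted protein loci also lay in the islands. Of 218 variable gene segments of the immunoglobulins 166 (76.1%) began in shared bases, 16 in WT only and 7 in Setd8-LKO only, while of 144 variable segments of the T cell receptors 13 (9.03%) began in shared bases, 21 (14.6%) in WT only and 0 in Setd8-LKO only. Bitter taste receptors (Tas2r) had 20 of 35 starts in shared bases, secretoglobins (Scgb) 21 of 34, and contactins with their partners (Cntn and Cntnap) 9 of 13. Natural killer cell receptors (Klr) had 10 of 26 in shared bases, 2 in WT only and 2 in Setd8-LKO only.

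Several of the strongest islands labelled Setd8-LKO lay over a single very long coding exon, which was noticed after the scores were seen. The islands over Plec, a linker of the cytoskeleton (exon of 6213 bp, at least 1000 per window against 99.8 in WT), Ttn, the giant sarcomere protein (17106 bp, 697 against 260), Fat1, an atypical cadherin (4068 bp, 688 against 143), and Ank3, ankyrin G (7674 bp, 367 against 199), had a WT partner. Those over Eppk1 (10374 bp) and Spen (8020 bp) had none. Zfhx3, a transcription factor, was high in both lists (5454 bp, 549 and 493). Of the 218 islands labelled Setd8-LKO with at least 100 per window, 26 held a coding exon of 2000 bp or more (11.9%, exact interval 7.94 to 17%), against 46 of 1888 of the others (2.44%, 1.79 to 3.24%). Those islands also held more genes, with 10.2 protein-coding starts per Mb against 2.87. Most genes behind the share belong to families described above. Of the genes whose longest coding exon has at least 2000 and under 3000 bp, 74 had it in such an island, and 6 without the Zfp, Olfr, Vmn and protocadherin families. For exons of 3000 bp and over the count was 13 with and without these families. The islands over Plec and Eppk1 had a GC content of 55.9% and 54.3%.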
